A study of Bos taurus with 20 samples.

Results

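Of the 20 recipient cows of the study, 13 were compared here: 6 cows that later delivered a heavy calf and 7 cows that later delivered a calf of middle weight. The cows were chosen by the calf birth weight (BW) in the sample labels, heavy being 49.5 to 56 kg and middle 39 to 47.4 kg. The rule itself used no measured RNA value, but the groups were set with earlier results of these data known. The cow of the 72.5 kg calf was kept out of the heavy group and the 6 cows of light calves (30 to 38 kg) entered only where they are named. Mean calf BW was 52.9 ± 2.65 kg (SD, n = 6) in the heavy group and 43.1 ± 3.15 kg (SD, n = 7) in the middle group, and the 2 calves next to the limit between the groups weighed 49.5 and 47.4 kg. The comparison asked what distinguishes the maternal blood at the high end of calf BW only.

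All cows shared 1 condition. Each carried a female beef fetus, made in vitro from an oocyte of an Angus donor and X-sorted semen and transferred as a blastocyst, and each gave blood from the tail vessels on day 63 of gestation, months before the calf was weighed. The groups were formed only by the calf BW recorded at birth, not by a treatment or genotype. The sources used here differ on the recipients' breed, and ages, parities, sires and sequencing dates were not compared, so the groups may differ in these too. Whole blood went straight into Tempus tubes, which lyse the cells, so RNA of neutrophils, lymphocytes, monocytes, platelets and red cell precursors is measured together, and fewer cells of a type cannot be told apart from less RNA per cell.

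In ruminants the trophoblast secretes interferon tau around the time of implantation, which induces interferon-stimulated genes in circulating leukocytes, and placental hormones and progesterone are known to act on maternal immune cells. The genes that mark trophoblast were near absent from the deposited counts: of the 35 that were matched, 26 had 0 counts in all 13 cows and 1 (SSLP1) passed the count filter. Leukocyte markers were present in every cow. PTPRC, the pan-leukocyte phosphatase CD45, ranged from 4523 to 5118 CPM (counts scaled to the library total), and CSF3R, the receptor for the neutrophil growth factor G-CSF, from 1108 to 2451 CPM.

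Total counts per cow were between 26251031 and 38904191 in the heavy group and between 28773235 and 39892111 in the middle group, and the group means did not differ beyond the spread between cows (exact permutation p of 0.407, two-sided). In each of the 78 pairs of libraries the counts differed beyond sampling noise (chi-square of 14.1 or more per degree of freedom). Skeletal muscle genes set some libraries apart. These genes, a list of 25 added after their values were seen, summed to between 55.1 and 649 CPM in the heavy cows and between 66.5 and 1979 CPM in the middle cows. The cow of the 41.5 kg calf was highest with 1979 CPM, of which MYH7, a slow muscle myosin, gave 762 CPM; the cow of the 47.4 kg calf followed with 714 CPM, and the cow of the 50 kg calf was highest in the heavy group with 649 CPM. Of the 25 genes, 1 had a p below 0.05, with a lower level in the heavy group, against 2.64% of all genes tested. Their median log2 fold change was -0.72 in all 13 cows but -0.03 when the 41.5 kg calf's dam was left out.

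For 15769 of the 37063 genes in the files, at least 10 counts were present in at least 5 of the 13 cows, and these were tested. With edgeR's quasi-likelihood test, 0 genes passed an FDR of 0.05 (0% of those tested), 0 passed an FDR of 0.1, and no gene had an FDR under 0.655. Without adjustment, 927 genes had a p below 0.05 (5.88%), of which 510 had a higher level in the heavy group (3.23%) and 417 a lower one (2.64%). Log2 fold changes were positive for 50.3% and negative for 49.7% of all genes. With limma's voom 0 genes had an FDR below 0.05 and 965 an unadjusted p below 0.05 (6.12%). DESeq2's Wald test, the tool the paper names, gave 11 genes with an FDR below 0.05 of the 5936 that received an adjusted p (0.185%), all 11 higher in the heavy group, and 1128 genes with an unadjusted p below 0.05 (5.01%). The plot of unadjusted p-values has 927 genes in its lowest bin, where an equal spread over 20 bins would give 788. The median log2 fold change of all genes was 0.00085 and their median standard error 0.12. For 9889 genes (62.7%) the 95% confidence interval of the log2 fold change lay within 0.5 of 0, so for these genes differences beyond that size lie outside the interval.

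**Figure D1:**
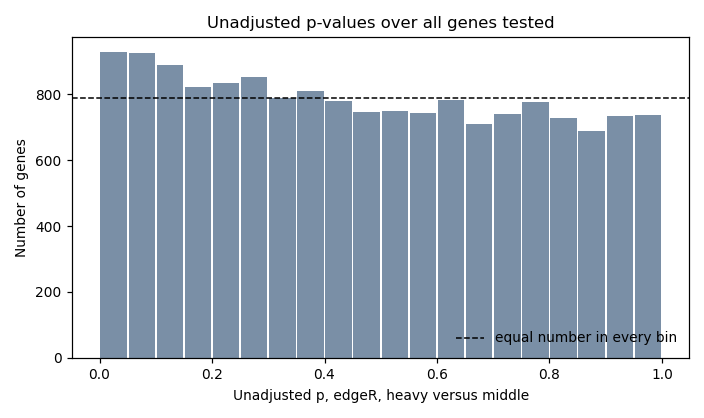
Number of genes (vertical axis) in each of 20 equal bins of the unadjusted edgeR p-value for heavy against middle cows (horizontal axis), with a dashed line at the 788 genes per bin that an equal spread would give. The lowest bin holds 927 genes and stands little above its neighbours.

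The genes below are ordered by role, and each level is in CPM, scaled by TMM, as the lowest, the median and the highest cow of a group. Log2 fold changes are heavy over middle. The 12 annotated genes with the smallest p among those with a higher level in the heavy group included 2 ubiquitin ligases. HERC1 (Entrez 538029), a giant HECT-type E3 ligase, had 1063, 1108 and 1161 CPM in the heavy cows and 795, 911 and 997 CPM in the middle cows. Every heavy cow was above every middle cow. Its log2 fold change was 0.31 with a standard error of 0.05 and an edgeR p of 4.2e-05. The FDR was 0.655 in edgeR but 0.0035 in DESeq2, which still called it whichever of the 13 cows was left out. SMURF1 (Entrez 513902), an E3 ligase that limits signalling by bone morphogenetic proteins, had 46.0, 55.7 and 72.8 CPM in the heavy cows and 40.7, 44.0 and 46.9 CPM in the middle cows. One heavy cow, that of the 53 kg calf, was within the middle range. The log2 fold change was 0.40 ± 0.09 (SE), with an FDR of 0.025 with DESeq2.

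Surface receptors of myeloid cells were next. CCR1 (Entrez 407771), a receptor for the chemokines CCL3 and CCL5, had 172, 208 and 258 CPM in the heavy and 145, 164 and 178 CPM in the middle cows. Only the 56 kg calf's dam, of the heavy cows, was within the middle range. The log2 fold change was 0.38 ± 0.08 (SE), with an FDR of 0.0086 with DESeq2, which called it in 7 of 13 fits when each cow was dropped in turn. SIRPB2 (Entrez 786236), of the signal-regulatory protein family of receptors, had 200, 239 and 255 CPM against 172, 195 and 212 CPM, a log2 fold change of 0.26 ± 0.06 (SE) and an FDR of 0.044 with DESeq2. Only the cow of the 49.5 kg calf lay within the middle range for this gene.

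Enzymes of lipid, sugar and nucleotide metabolism were also among them. ABHD2 (Entrez 508717), a serine hydrolase acting on lipids, had 404, 507 and 550 CPM in the heavy and 343, 381 and 430 CPM in the middle cows, with a log2 fold change of 0.35 ± 0.07 (SE) and an FDR of 0.0086 with DESeq2. GANC (Entrez 530330), the neutral alpha-glucosidase C, had 54.7, 56.1 and 60.1 CPM against 44.7, 49.4 and 52.3 CPM, without overlap. The difference of 0.23 ± 0.05 (SE) on the log2 scale had an FDR of 0.025 with DESeq2. AMPD3 (Entrez 519803), an AMP deaminase of red cells and leukocytes, had 149, 173 and 230 CPM against 108, 133 and 150 CPM, and its log2 fold change was 0.47 ± 0.11 (SE). GPCPD1 (Entrez 518469), which cleaves glycerophosphocholine, had 238, 261 and 284 CPM against 199, 211 and 250 CPM and was not called by DESeq2 (FDR of 0.076).

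The remaining 4 were GADD45G, APH1B, ZBTB37 and FAM135A. GADD45G (Entrez 504939), a stress-induced growth arrest gene, was low, with 6.60, 7.65 and 8.39 CPM in the heavy and 2.60, 4.64 and 5.94 CPM in the middle cows. The groups did not overlap and the log2 fold change was 0.70 ± 0.15 (SE). APH1B (Entrez 530913), a subunit of gamma-secretase, had a log2 fold change of 0.38 ± 0.09 (SE). ZBTB37 (Entrez 617314), a zinc finger protein, had 91.3, 109 and 117 CPM against 65.9, 82.2 and 93.8 CPM. FAM135A (Entrez 532081) had 45.8, 56.9 and 59.1 CPM against 36.0, 41.8 and 50.3 CPM, and 5 of the 6 heavy cows lay between 56.4 and 59.1 CPM. ZBTB37 and FAM135A were called by DESeq2 (FDR of 0.044 and 0.0086), as were 2 unnamed loci. With each cow left out in turn, DESeq2 called ABHD2 in 6 of 13 fits, FAM135A in 5, SMURF1, AMPD3 and LOC112442378 in 4, GANC and ZBTB37 in 3, LOC104973826 in 2 and SIRPB2 in 1. LOC104973826 had 106, 123 and 136 CPM against 88.3, 99.7 and 117 CPM, and LOC112442378 had 47.8, 90.7 and 124 CPM against 37.1, 50.4 and 68.5 CPM.

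**Figure D2:**
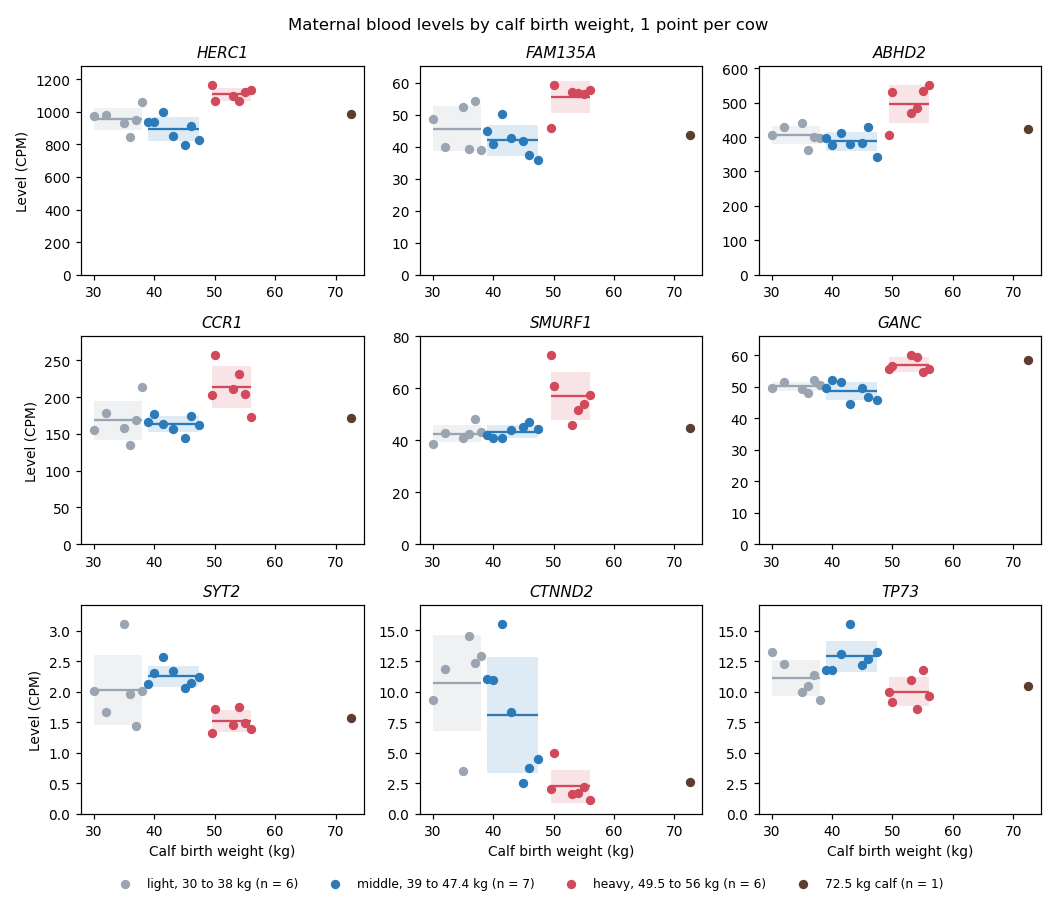
Level in CPM (vertical axis, from 0) of 9 genes against calf birth weight in kg (horizontal axis) in all 20 cows, 1 point per cow, with the group mean as a line and 1 SD as a band. For HERC1 and GANC every heavy cow (49.5 to 56 kg) lies above every middle cow, for SYT2 and TP73 below, while the cow of the 72.5 kg calf has 985 CPM of HERC1 and 58.5 CPM of GANC.

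Among the 12 annotated genes with the smallest p and a lower level in the heavy group were RANBP1, EXOSC10 and TXNDC5. RANBP1 (Entrez 533251), a partner of the nuclear transport GTPase RAN, had 48.9, 58.1 and 60.9 CPM in the heavy and 61.6, 65.4 and 73.8 CPM in the middle cows. Its groups did not overlap, and the log2 fold change was -0.23 ± 0.06 (SE). RAN, which is not one of the 12, had 69.2, 73.2 and 78.8 CPM against 77.8, 82.5 and 85.8 CPM, with a log2 fold change of -0.15 ± 0.05 (SE). EXOSC10 (Entrez 535340), a nuclease of the RNA exosome, had 94.5, 98.9 and 103 CPM against 100, 111 and 120 CPM. TXNDC5 (Entrez 615027), a disulfide isomerase of the endoplasmic reticulum, had 52.9, 62.4 and 68.0 CPM against 65.8, 72.3 and 86.9 CPM. None of these 4 had an FDR below 0.05 with edgeR or DESeq2 in the 13 cows. DESeq2 called TXNDC5 without both cows next to the limit between the groups and without the dam of the 49.5 kg calf alone. It called EXOSC10 without the dam of the 49.5 kg calf and without that of the 45 kg calf. The edgeR p was 0.0019 for RANBP1, 0.0063 for RAN, 0.0016 for EXOSC10 and 0.002 for TXNDC5.

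CTNND2 (Entrez 523661), the adhesion protein delta-catenin, had 1.12, 1.84 and 4.93 CPM in the heavy cows and 2.50, 8.33 and 15.5 CPM in the middle cows. In the middle group the cows of the 39, 40 and 41.5 kg calves had between 10.9 and 15.5 CPM, the cow of the 43 kg calf had 8.33 CPM, and the cows of the 45, 46 and 47.4 kg calves had between 2.50 and 4.48 CPM. The log2 fold change was -1.84 ± 0.44 (SE), with an edgeR p of 0.00075 and a DESeq2 p of 2.7e-06 that DESeq2 left without an adjusted value. On the genes of the edgeR test DESeq2 called CTNND2 with an FDR below 0.05, as it did with the 72.5 kg calf in the heavy group.

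Of the other genes with a lower level, SYT2 (Entrez 100300626), a synaptotagmin, had 1.32, 1.47 and 1.75 CPM against 2.06, 2.24 and 2.58 CPM. UROS (Entrez 613425), an enzyme of heme synthesis, had 6.55, 8.2 and 10.7 CPM against 9.68, 12.6 and 13.8 CPM. TP73 (Entrez 515105), a relative of p53, had 8.60, 9.80 and 11.7 CPM against 11.8, 12.7 and 15.5 CPM. For SYT2 and TP73 every heavy cow was below every middle cow, as it was for CASTOR2 (Entrez 524593, a relative of the arginine sensor of mTORC1), ACAP3 (Entrez 515444, a GTPase activator of Arf proteins) and VWC2. CASTOR2 had 29.0, 31.8 and 33.5 CPM against 34.1, 36.7 and 38.7 CPM, and ACAP3 had 24.6, 25.7 and 26.1 CPM against 27.3, 28.5 and 31.0 CPM. PML (Entrez 100138545), the interferon-induced organizer of nuclear bodies, had 132, 144 and 158 CPM against 149, 173 and 177 CPM. VWC2 and PDC were under 1.5 CPM in every cow and VWC2 was at 0 in 2 heavy cows, so these 2 genes rest on few counts. The log2 fold changes of these 8 genes were between -0.18 for ACAP3 and -2.33 for VWC2. Of loci without a name, LOC101907298 (0.49) and LOC107133158 (1.06) had the smallest p with a positive log2 fold change and LOC789027 (-0.23) and LOC783362 (-1.19) with a negative one.

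Over all genes tested, the heavy and middle groups did not overlap in CPM for 32 (0.203%), with the heavy cows above in 12 (0.0761%) and below in 20 (0.127%). These counts describe the 13 cows, since the ranking by p used the same values. Among the 24 annotated genes described above, 3 of the 12 with a higher and 6 of the 12 with a lower level were of this kind.

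Neutrophils are the most abundant granulocytes of blood and first responders to bacteria. Of 16 neutrophil markers tested, 15 had a positive log2 fold change and the median was 0.24, against 0.00085 for all genes; 3 had a p below 0.05 with a higher level, against 3.23% of all genes, and 0 had an FDR below 0.05. VNN2 and CXCR2 were among them. VNN2, a surface pantetheinase, had 845, 1187 and 1240 CPM in the heavy and 765, 921 and 952 CPM in the middle cows. CXCR2, the receptor for the chemokine interleukin-8, had 130, 207 and 250 CPM against 108, 150 and 191 CPM. The summed markers ranged from 5354 to 8345 CPM in the heavy and from 5316 to 6896 CPM in the middle cows. The heavy group was split: the cows of the 50, 53, 54 and 55 kg calves had mean log2 levels between 0.21 and 0.52 above the middle mean, and those of the 49.5 and 56 kg calves were 0.20 and 0.24 below it. The count of 3 was between 2 and 6 when each cow was left out in turn, and highest without the dam of the 56 kg calf. The light cows were also above the middle cows: their summed neutrophil markers had a median of 7311 CPM, against 6298 CPM in the middle and 7806 CPM in the heavy cows, all 6 had list means above the middle mean, and from light to middle 13 of 16 markers had a negative log2 fold change with a median of -0.18.

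Receptors that myeloid cells carry were also tested. C5AR1, the receptor for the complement fragment C5a, had 213, 264 and 280 CPM against 161, 205 and 239 CPM (log2 fold change of 0.30 ± 0.09, SE), and 3 of 20 complement genes had a p below 0.05 with a higher level, against 3.23% of all genes here and for the next 2 lists, the other two being C5AR2 and CD55, a regulator that protects cells from complement. Of 24 chemokines and their receptors 3 had a p below 0.05 with a higher level (CCR1, CXCR2 and CCRL2), and of 17 genes of the interleukin-1 axis 16 had a positive log2 fold change and 2 a p below 0.05 (IL1R1 and IL1RAP), a count of 2 that was 0 once the 50 kg calf's dam was left out. The 20 complement genes were split into 10 positive and 10 negative, with a median of 0.0054, and the 24 chemokines and receptors into 14 and 10. With the neutrophil score as a covariate the complement median was -0.21, with 3 members lower and 2 higher at a p below 0.05. Among 13 monocyte markers 8 were positive and 5 negative, and 0 had a p below 0.05. C5AR2, CCRL2 and IL1RAP were named after their values were seen, as was PGLYRP1 below. Of 15 neutrophil granule genes tested 7 were positive and 8 negative. The 2 with a p below 0.05, LTF and PGLYRP1, were lower, against 2.64% of all genes. They had no more than 1.82 and 0.53 CPM in any heavy cow. LTF, the iron-binding lactoferrin, had 0.19, 0.57 and 1.82 CPM in the heavy and 0.45, 1.41 and 5.63 CPM in the middle cows. With the neutrophil marker score as a covariate, the log2 fold change of CCR1 was 0.28 (0.38 without it) and that of C5AR1 0.18 (0.30). That of HERC1 was 0.31 (0.31 without it) and that of SMURF1 0.46 (0.40). VNN2 is itself a member of the neutrophil marker list, so its change from 0.32 to 0.15 is not separate from the score. Whether the number of neutrophils plays a part in these values was not tested.

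Platelet genes had a positive log2 fold change in 16 of 18 members with a median of 0.20, and 0 had a p below 0.05. Their mean level was 0.95 above the middle mean on the log2 scale in the 54 kg calf's dam and 0.61 below it in the 56 kg calf's dam, and leaving out the former gave a median of -0.01. With the neutrophil score as a covariate the median of the platelet genes was -0.15. Eosinophil and basophil genes were positive in 9 of 10 members with a median of 0.27, and 0 had a p below 0.05. IL5RA, the interleukin-5 receptor of eosinophils, ranged from 37.8 to 198 CPM in the heavy and from 20.2 to 147 CPM in the middle cows.

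Of 23 T cell markers 0 had a p below 0.05 and the median was -0.06, and of 18 B cell markers 1 did, BLK, which was lower (2.64% of all genes). Cattle carry many gamma-delta T cells, which bear WC1 scavenger receptors. Of 10 genes of these cells 8 had a negative log2 fold change, the median was -0.30 and 4 had a p below 0.05 with a lower level, against 2.64% of all genes. These 4 were BLK, WC1, WC1.3 and SOX13, of which WC1 and SOX13 were chosen after their values were seen. BLK, a kinase shared with B cells, had 47.7, 53.1 and 57.8 CPM in the heavy and 55.1, 63.9 and 74.5 CPM in the middle cows, and WC1.3 had 23.5, 41.3 and 48.0 CPM against 31.0, 51.5 and 72.2 CPM. The WC1 genes belong to a family of near-identical members, and how reads fitting several members were counted is not given in the sources used here. The count of 4 was 1 when the dam of the 40, 46 or 54 kg calf was left out, 2 for that of the 47.4, 50 or 55 kg calf, 6 for that of the 43 kg calf, and 1 with the neutrophil score or in a fit of 19 cows. The light cows were low as well: the summed gamma-delta genes had medians of 203 CPM in the light, 270 CPM in the middle and 232 CPM in the heavy cows, and from light to middle 10 of 10 had a positive log2 fold change with a median of 0.24.

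Genes of cell division mark the few dividing cells of blood. Of 39 mitotic and replication genes tested 36 had a negative log2 fold change, the median was -0.14, and 11 had a p below 0.05, all 11 lower, against 2.64% of all genes; 0 had an FDR below 0.05 with edgeR or DESeq2. TYMS, the thymidylate synthase of DNA synthesis, had 10.5, 11.6 and 12.2 CPM in the heavy and 12.5, 13.7 and 14.3 CPM in the middle cows, without overlap. The replicative helicase subunits MCM2, MCM4, MCM5 and MCM6 were among the 11 and were named after their values were seen, MCM5 with 31.3, 34.1 and 34.8 CPM against 32.0, 38.9 and 42.6 CPM. MKI67, the proliferation marker Ki-67, had 264, 355 and 385 CPM against 302, 398 and 479 CPM (edgeR p of 0.1). The dam of the 50 kg calf had the lowest mean level of the list, 0.44 below the middle mean on the log2 scale. Those of the 49.5 and 56 kg calves were 0.00 and 0.01 from that mean. Low levels were not limited to the heavy group. The middle cow of the 41.5 kg calf was at -0.23 from that mean, below every heavy cow but that of the 50 kg calf. The light cows were between -0.23 and 0.14 from it. From light to middle 27 of 39 genes had a positive log2 fold change, with a median of 0.06. The count of 11 was 5 when the dam of the 40 or 47.4 kg calf was left out, 7 for that of the 45, 50, 54 or 55 kg calf, 7 without both cows next to the limit, 4 with the neutrophil score and 7 with the T cell score as a covariate.

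Heat shock chaperones fold proteins in every cell. Of 25 tested, 20 had a negative log2 fold change with a median of -0.10, and 6 had a p below 0.05 with a lower level, against 2.64% of all genes. HSP90AB1, the constitutive cytosolic HSP90, had 1394, 1451 and 1507 CPM in the heavy and 1514, 1548 and 1646 CPM in the middle cows, without overlap, at a log2 fold change of -0.11 ± 0.04 (SE). HSPA8, the constitutive HSP70 (named, like the next 4, after its value was seen), had 1330, 1463 and 1533 CPM against 1478, 1565 and 1642 CPM. The other 4 were HSP90B1, DNAJA1, STIP1 and HSPA4L, with log2 fold changes of -0.18, -0.16, -0.10 and -0.61. Mean levels of the list lay between 0.06 and 0.15 below the middle mean in all 6 heavy cows and at 0.11 below it in the cow of the 72.5 kg calf. Low levels were not limited to these cows. The light cows were between -0.09 and 0.04 from that mean, and the middle cow of the 46 kg calf was at -0.06. The count of 6 was 4 when the dam of the 43 or 55 kg calf was left out, 9 for that of the 46 or 49.5 kg calf, and 4 with total count as a covariate. Of 78 cytosolic ribosomal protein genes 69 were negative with a median of -0.07, and 4 had a p below 0.05 with a lower level, against 2.64% of all genes (RPS27 and, named after their values were seen, RPL6 and RPL13A among them). Without both cows next to the limit between the groups that median was -0.01 and the count 1, and leaving out the dam of the 41.5 kg calf made the count 11.

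**Figure D3:**
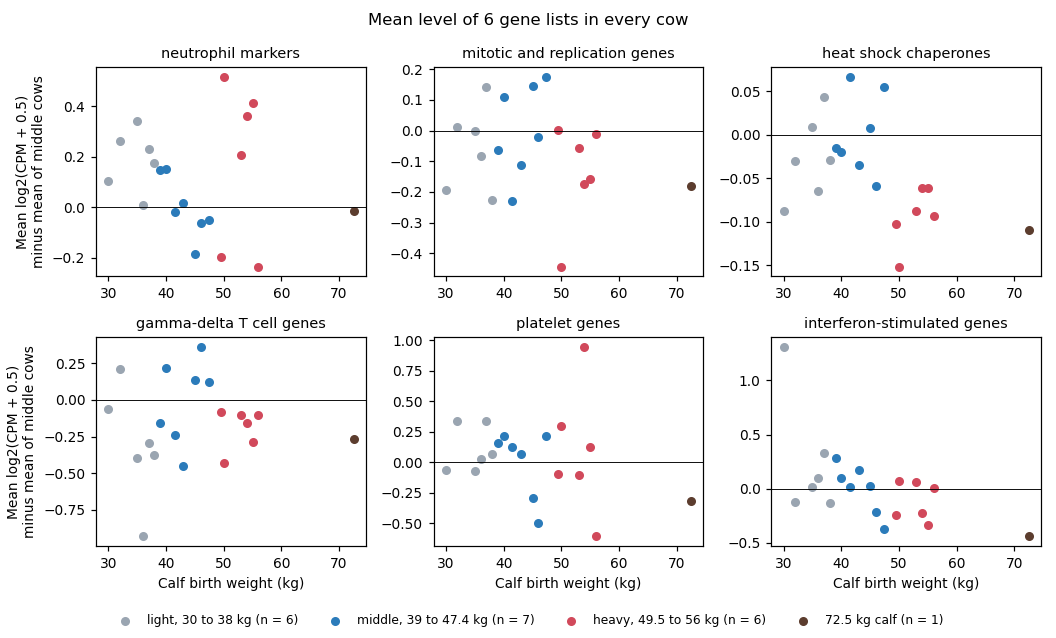
Mean log2(CPM + 0.5) of the tested members of 6 gene lists, minus the mean of the 7 middle cows (vertical axis), against calf birth weight in kg (horizontal axis), 1 point per cow. All 6 heavy cows lie below 0 for heat shock chaperones, as do some light and middle cows. For neutrophil markers 4 heavy cows lie above and 2 below.

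The insulin-like growth factor axis carries growth signals in fetus and dam, and leukocytes express its receptors. Of 14 members tested, 4 had a p below 0.05 with a higher level and 1 with a lower level, against 3.23% and 2.64% of all genes. STAT5B, a transcription factor downstream of growth hormone, had 223, 237 and 248 CPM in the heavy and 206, 217 and 220 CPM in the middle cows, without overlap, and a log2 fold change of 0.14 ± 0.04 (SE). IGF1R, the receptor, had 55.7, 76.8 and 79.7 CPM against 53.0, 58.6 and 80.5 CPM, and the docking protein IRS2 had 47.1, 59.2 and 66.9 CPM against 40.6, 48.0 and 59.4 CPM. GRB10, an imprinted inhibitor of the receptor, was at 1.54, 2.71 and 3.43 CPM against 1.35, 1.93 and 2.25 CPM. IGF2BP3, an RNA-binding protein, was the lower one at 1.5, 2.52 and 3.14 CPM against 2.45, 3.15 and 5.91 CPM. IGF1R, IRS2 and IGF2BP3 were chosen after their values were seen. The count of 4 was 2 when the dam of the 47.4 or 54 kg calf was left out or with the neutrophil score.

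Interferon-stimulated genes showed small differences at this end of the range. Of 40 tested, 31 had a negative log2 fold change with a median of -0.05, and 4 had a p below 0.05 with a lower level, against 2.64% of all genes (PML, IFI6, EPSTI1 and OAS1Y; the last 3 were chosen after their values were seen). IFI6 had 42.9, 61.3 and 74.9 CPM in the heavy and 62.5, 80.8 and 104 CPM in the middle cows. MX2, an antiviral GTPase, had 101, 135 and 181 CPM against 115, 190 and 296 CPM (edgeR p of 0.083), and IRF7, a regulator of interferon genes, had 19.2, 23.2 and 28.4 CPM against 19.3, 25.6 and 34.2 CPM (edgeR p of 0.25). GBP5, a guanylate-binding protein, had 28.1, 34.9 and 45.7 CPM against 34.7, 49.4 and 54.0 CPM, with a log2 fold change of -0.40 ± 0.12 (SE). From the light to the middle group, in a fit of 19 cows that shares these middle cows, all 40 had a negative log2 fold change and the median was -0.27. The cow of the 30 kg calf carried that step: its mean level of the interferon-stimulated genes was 1.31 above the middle mean on the log2 scale, the other 5 light cows were between -0.14 and 0.33, and without it the median was -0.01 with 21 of 40 negative. In that fit 0 of the 40 had a p below 0.05 for the step from middle to heavy, against 4 in the fit of 13 cows.

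The PAG1, CSK and membrane raft adaptors, which tune receptor kinases of leukocytes, had 18 of 21 positive members, a median of 0.09 and 3 with a p below 0.05 and a higher level, against 3.23% of all genes (SRC and, named after their values were seen, CBL and CD24), a count that was 1 when the dam of the 39, 47.4, 50 or 54 kg calf was left out. With the neutrophil score as a covariate the count of the PAG1, CSK and membrane raft adaptors was 1 and their median 0.00077. SRC had 1.23, 2.02 and 2.57 CPM in the heavy and 1.01, 1.21 and 1.36 CPM in the middle cows. SRPK2, a kinase of splicing factors carried over from an analysis over all calf weights, had 281, 391 and 478 CPM against 242, 259 and 427 CPM, with a log2 fold change of 0.38 ± 0.14 (SE) and an edgeR p of 0.016. Of the genes the study used as markers of calf BW, 26 from its gestational list had 0 members with a p below 0.05 and a higher level and 3 with a lower level, and 16 from its calf weight list had 1 and 3. Over all genes 3.23% had such a p with a higher and 2.64% with a lower level. Both lists had been selected on data of these cows, and their counts are not independent evidence. In the remaining lists at most 2 members had a p below 0.05 in either direction.

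**Figure D4:**
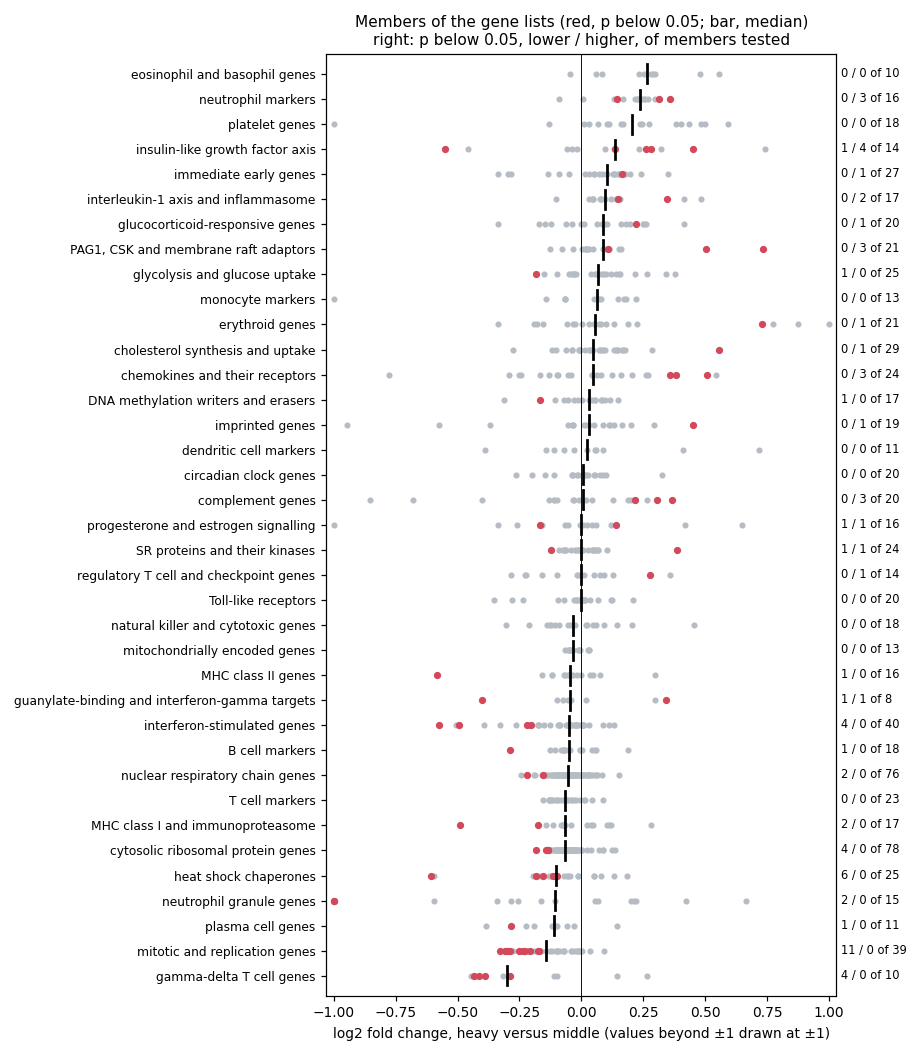
Log2 fold change, heavy over middle (horizontal axis, values beyond ±1 drawn at ±1), of every tested member of 37 gene lists (rows), in red where the unadjusted edgeR p is below 0.05, with the list median as a black bar and the counts lower / higher of members tested at the right. Mitotic and replication genes have 11 red points, all below 0, and neutrophil markers 3, all above 0.

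Whether a difference belonged to the high end was tested directly, as the step from middle to heavy minus the step from light to middle in 19 cows. Of 16206 genes tested, 0 had an FDR below 0.05 (0%), no FDR was under 0.999, and 593 had an unadjusted p below 0.05 (3.66%). DESeq2 and voom also gave 0, with 771 and 592 genes at an unadjusted p below 0.05. So no gene was shown to differ between the 2 steps. In the same fit the step from light to middle had 0 genes with an FDR below 0.05 and 719 with an unadjusted p below 0.05 (4.44%).

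Both steps are given side by side for the genes named above. They share the middle cows, so that a chance shift of those cows moves them in opposite directions. HERC1, ABHD2, GANC, SMURF1, TP73, RANBP1 and CTNND2 were chosen for a small p between heavy and middle cows. That choice favours a large step from middle to heavy, so their values here are no independent evidence for the high end. For HERC1 the step from middle to heavy was 0.30 ± 0.06 (SE) and that from light to middle -0.10 ± 0.06 (SE), a difference of 0.39 (edgeR p of 0.00078). For ABHD2 they were 0.34 and -0.06, for GANC 0.22 and -0.04, and for SMURF1 0.39 and 0.03. TP73 had -0.37 and 0.22, and RANBP1 -0.24 and -0.04. GBP5 had -0.41 and -0.25, SRPK2 0.38 and 0.19, and MX2 -0.40 and -1.17. The edgeR p for the difference of their steps was 0.52, 0.43 and 0.37. These genes were known from the analysis over all calf weights, a choice that favours steps in the same direction. The light cow of the 30 kg calf had 1599 CPM of MX2 and the other 5 between 110 and 201 CPM. CTNND2 had -1.86 ± 0.43 (SE) and -0.40 ± 0.40 (SE), a difference with an edgeR p of 0.044.

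The 3 genes with the smallest p and a larger step from middle to heavy than from light to middle were SLC2A9, LOC107133158 and HERC1. SLC2A9 (Entrez 100337051), a urate and sugar transporter, had 216, 290 and 315 CPM in the heavy, 201, 217 and 273 CPM in the middle and 270, 285 and 348 CPM in the light cows, so its middle cows were low rather than its heavy cows high. The 3 in the other direction were MYL6B, LOC524576 and CSRP3, with middle levels that 1 or a few cows set. CSRP3, a muscle LIM protein, had 29.3 CPM in the 41.5 kg calf's dam and at most 7.78 CPM in any other, and MYL6B, a myosin light chain, had 20.3 CPM there and at most 7.49 CPM elsewhere. That cow also had the highest sum of skeletal muscle genes, and the part of those genes in this difference was not tested. Without it the difference of steps was -2.55 for CSRP3 and -2.05 for MYL6B, against -4.79 and -3.60 with it. The dam of the 40 kg calf had 428 CPM of LOC524576, and without that cow its difference was -1.71, against -2.99 with it.

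**Figure D5:**
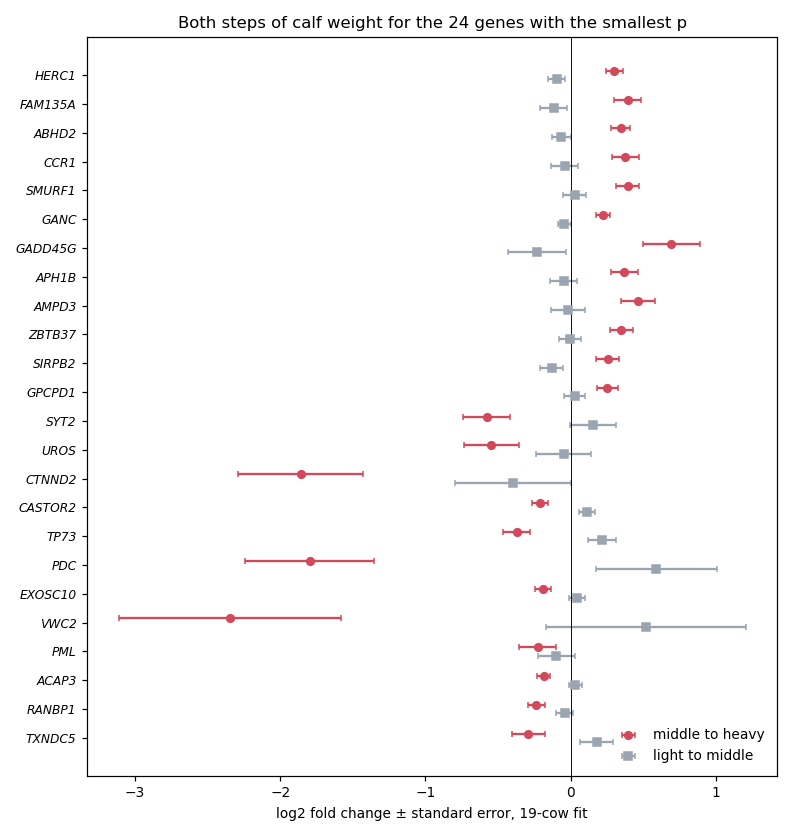
Log2 fold change with its standard error (horizontal axis) from middle to heavy (red circles) and from light to middle (grey squares) in the 19-cow fit for the 24 annotated genes with the smallest p in the comparison of heavy and middle cows (rows). The red circles were the basis of the choice of genes; most grey squares lie near 0, between -0.40 for CTNND2 and 0.59 for PDC.

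The cow of the 72.5 kg calf, which took no part in the choice, is 1 animal and allows no test. She lay on the heavy side of the midpoint between both group means for 6 of the 12 genes with a higher level and for 12 of the 12 with a lower level. Her HERC1 level was 985 CPM, FAM135A 43.7 CPM and CCR1 172 CPM, within the middle range for HERC1, FAM135A and CCR1. GANC was 58.5 CPM and AMPD3 190 CPM, both within the heavy range, and ZBTB37 was 117 CPM, slightly above it. Of the genes with a lower level, RANBP1 was 55.4 CPM, UROS 8.13 CPM, CASTOR2 29.4 CPM and SYT2 1.57 CPM, each within the heavy range and below every middle cow. The mean of the light cows lay on the heavy side of that midpoint for 0 of the 12 genes with a higher and 3 of the 12 with a lower level.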

How the data were processed

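RNA was sequenced from whole blood of 20 cows at day 63 of gestation, 1 library per cow. The authors checked reads with FastQC 0.11.9, trimmed them with Trimmomatic, aligned them with STAR 2.7.0b to bosTau9 and counted them per gene with featureCounts of Subread 2.0.3, and they deposited raw counts per Entrez gene, without normalization. The sources name different library kits (SMARTer Stranded or TruSeq stranded), and the strand and multi-mapping settings are not given in the sources used here, so genes of multigene families and antisense pairs are uncertain. Gene names came from a RefSeq table of ARS-UCD2.0, in which every identifier was found; no coordinates are given because that build differs.

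Groups were set by calf birth weight. The main test was edgeR 4.0.16 (R 4.3.3), TMM and quasi-likelihood, on genes that reached 10 counts in 5 or more of the 13 cows, with Benjamini-Hochberg adjustment over all genes tested and an FDR threshold of 0.05. DESeq2 1.42.0, voom of limma 3.58.1, other size factors and filters, marker scores and total count as covariates, other group limits and leaving out each cow were alternatives. DESeq2 on the edgeR genes, with 1 cow left out and with other group limits, list counts under the covariates or with 1 cow left out, the skeletal muscle list and both steps with 1 cow left out were added after seeing the data. CPM shown were scaled by TMM over 20 cows. p-values of single genes are unadjusted unless called FDR, and lists were described by counts and medians with no test of the list. The tests were also run on simulated data, with planted changes larger than the median absolute log2 fold change of 0.09 in these data. That run gives no measure of power at that size.

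The groups, the members and the gene lists were chosen with earlier results of these data known. Named genes are the 12 annotated genes with the smallest p in each direction, 2 unnamed loci in each direction, in each list the 2 members with the highest level and the one with the smallest p, 6 genes known from the analysis over all calf weights, and the 3 genes in each direction with the smallest p for the difference of the steps. The genes DESeq2 called and further list members with a p below 0.05 were named after their values were seen; some list members are not reported here. Depth was between 26251031 and 39892111 counts per cow; p-values measure the spread between cows. Figures used Python 3.11.15 and matplotlib 3.10.9.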

Additional observations from a re-analysis of the deposited data

Results flagged for a closer look

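Within the 182 groups of cows formed by 91 named genes and 2 groups each, 10 had a cow that stood apart from the rest by Dixon's ratio on log2(CPM + 0.5). About 1 in 20 groups is expected to do so by chance, which would be 9.1. The cow of the 49.5 kg calf was the lowest heavy cow for FAM135A with 45.8 CPM (the next had 56.4), for APH1B with 11.8 CPM (14.9) and for IGF1R with 55.7 CPM (74.3). The cow of the 56 kg calf was the lowest heavy cow for CSF3R with 1108 CPM (1838) and for CBL with 236 CPM (261), and the cow of the 50 kg calf for HSP90B1 with 839 CPM (1036). In the middle group the cow of the 46 kg calf was lowest for UROS with 9.68 CPM (12.1), the cow of the 43 kg calf highest for TP73 with 15.5 CPM (13.2), and the cow of the 41.5 kg calf lowest for MCM5 with 32.0 CPM (38.0) and for MCM2 with 31.7 CPM (43.3). Leaving out the 41.5 kg calf's dam, the log2 fold change of MCM5 was -0.25 and that of MCM2 -0.36.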

How the results depend on the processing

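edgeR gave 0 genes with an FDR below 0.05 in every alternative that was run, the other filters, size factors, covariates, group limits and the 13 fits without 1 cow included. No FDR over these was under 0.0919, a value reached when the dam of the 41.5 kg calf was left out. Only the count of DESeq2 differed from 0: 11 with its own filter, 9 on the genes of the edgeR test (6 of the 11 among them), 25 without both cows next to the limit between the groups (6 of the 11) and 17 with the 72.5 kg calf in the heavy group (6 of the 11). The 9 were 8 higher and 1 lower in the heavy group, CTNND2 being the lower one and GADD45G among the others. The 25 were 22 higher and 3 lower. The 17 were 11 higher and 6 lower, again with CTNND2. Left out 1 at a time, the cows gave between 2 genes (without that of the 39 kg calf) and 34 (without that of the 46 kg calf); the count was 33 without that of the 41.5 kg calf, 27 without that of the 49.5 kg calf, 3 without that of the 54 kg calf, 16 without that of the 56 kg calf, 10 without that of the 45 or 47.4 kg calf, 5 without that of the 40, 50 or 53 kg calf and 7 without that of the 43 or 55 kg calf, and the cause was not tested. HERC1 was called in 13 of these 13 fits, CCR1 in 7, ABHD2 in 6 and the other 8 in 5 or fewer. All 11 had an edgeR p below 0.05 in every edgeR alternative. At an unadjusted p below 0.05, edgeR gave 1601 genes when genes with any count were tested and otherwise 713 to 1292. The difference of steps had 0 genes in every alternative, with 495 to 1480 at an unadjusted p below 0.05. No named gene of the heavy and middle comparison changed the sign of its log2 fold change. No paired analysis was possible because each cow belonged to 1 group and the replicate numbers only follow accession order. With 6 and 7 cows the 95% interval of the median gene reached 0.25 to either side on the log2 scale, and genes under 1.5 CPM such as VWC2 and PDC rest on few counts.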

Other observations

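Red cell and hormone-related genes were not described above. KLF1, the erythroid transcription factor, had 1.08, 1.54 and 2.07 CPM (lowest, median and highest) in the heavy and 0.59, 1.02 and 1.13 CPM in the middle cows, with a log2 fold change of 0.73 ± 0.22 (SE) and an edgeR p of 0.0054. It was the only 1 of 21 erythroid genes with a p below 0.05, against 3.23% of all genes with a higher level, here and for the next list. TSC22D3, the glucocorticoid-induced leucine zipper, had 1060, 1326 and 1478 CPM against 875, 1134 and 1288 CPM. It was the only 1 of 20 glucocorticoid-responsive genes with a p below 0.05. Its log2 fold change of 0.22 was 0.14 with the neutrophil score as a covariate. With that score the list had 0 members higher and 2 lower at a p below 0.05, and a median of 0.0067. NCOA2, a coactivator of steroid receptors, had 317, 354 and 365 CPM against 297, 317 and 345 CPM. Of 16 genes of progesterone and estrogen signalling 1 was higher and 1 lower at a p below 0.05, against 3.23% and 2.64% of all genes. STARD4, a cholesterol carrier, had 13, 21.8 and 38.9 CPM against 12.7, 16.1 and 19.3 CPM. It was the only 1 of 29 genes of cholesterol synthesis and uptake with a p below 0.05, against 3.23% of all genes with a higher level. Its log2 fold change of 0.56 was 0.82 with the neutrophil score as a covariate and 0.35 without the dam of the 56 kg calf. PSME2, a subunit of the proteasome activator, had 42.9, 46.5 and 49.8 CPM against 48.2, 53.4 and 60.0 CPM, and the cow of the 72.5 kg calf had 39.1 CPM. Of 17 MHC class I and immunoproteasome genes 2 had a p below 0.05 with a lower level and 0 with a higher level, against 2.64% and 3.23% of all genes.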
